A study of Saccharomyces cerevisiae with 2 samples.

Results

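The alcohol and butanediol dehydrogenases of Saccharomyces cerevisiae are described here by 10 genes, ADH1 to ADH7, SFA1, BDH1 and BDH2. They were chosen by symbol among the mRNA features of the table, and all 10 were found among its 6420 features, of which 5995 are mRNAs. Both groups were haploid BY4741 cells of mating type a, a laboratory strain derived from S288C that carries deletions in HIS3, LEU2, MET17 and URA3. The WT cells have CDC55, which encodes the regulatory B subunit (Cdc55p) of protein phosphatase 2A, and the cdc55Δ cells lack it. Both stood unshaken in YPD20, a rich medium with 20% glucose, at 30 °C for 6 h. RNA depleted of rRNA was sequenced, with 1 library per strain, so no difference below has a replicate check, and every comparison is of these libraries.

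Alcohol dehydrogenases move hydride between an alcohol and its aldehyde or ketone, with NAD or NADP as the carrier. In fermenting yeast, acetaldehyde made from pyruvate is reduced to ethanol, which returns NADH to NAD and lets glycolysis run on. When glucose is used up, the reverse reaction lets the cell feed on the ethanol. Other members of the family act on long-chain, aromatic or branched alcohols, on formaldehyde bound to glutathione, or on acetoin, which is reduced to 2,3-butanediol.

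The 10 genes are intron-free, and none overlaps another annotated feature in the S288C reference (R64). ADH1 (YOL086C) lies on the minus strand of chromosome XV, from 159548 to 160594. ADH2 (YMR303C, minus strand, 873291 to 874337), ADH3 (YMR083W, plus strand, 434788 to 435915) and ADH6 (YMR318C, minus strand, 911061 to 912143) are spread over chromosome XIII. ADH4 (YGL256W) occupies 15159 to 16307 on the plus strand of chromosome VII, and ADH5 (YBR145W) occupies 533762 to 534817 on the plus strand of chromosome II. ADH7 (YCR105W) runs from 309070 to 310155 on the plus strand of chromosome III, 6465 bases from the chromosome end. SFA1 (YDL168W) runs from 159604 to 160764 on the plus strand of chromosome IV. BDH2 (YAL061W, 33448 to 34701) and BDH1 (YAL060W, 35155 to 36303) are neighbours on the plus strand of chromosome I, with 453 bases between them. All of these intervals are coding sequence, because the annotation holds no UTRs for these genes.

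How alike the coding sequences are decides how well short reads can tell the members apart. ADH1 and ADH2 are the closest pair, with 88.8% of coding bases and 93.1% of residues identical, and each encodes 348 residues. Their first 60 coding bases, each read on the minus strand, already hold 7 differences. They are shown because reads over such stretches can be placed on 1 gene, and capitals in ADH2 mark the bases that differ from ADH1.
ADH1 (R64 chrXV:160535-160594): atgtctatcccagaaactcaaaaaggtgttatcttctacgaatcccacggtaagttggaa
ADH2 (R64 chrXIII:874278-874337): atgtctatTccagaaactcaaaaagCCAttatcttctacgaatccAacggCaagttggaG

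Further in, the pair shares an unbroken run of 189 bases, from base 193 to base 381 of the ADH1 coding sequence. The first 60 bases of that run are shown with the aligned bases of ADH3 and ADH5, because they show where ADH1 and ADH2 cannot be separated while the other isozymes can. Capitals mark differences from ADH1, of which there are 0 in ADH2, 14 in ADH3 and 12 in ADH5.
ADH1 (R64 chrXV:160343-160402, minus strand): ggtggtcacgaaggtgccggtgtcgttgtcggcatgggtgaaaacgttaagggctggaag
ADH2 (R64 chrXIII:874086-874145, minus strand): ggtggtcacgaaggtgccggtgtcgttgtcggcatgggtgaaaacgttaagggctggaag
ADH3 (R64 chrXIII:435061-435120, plus strand): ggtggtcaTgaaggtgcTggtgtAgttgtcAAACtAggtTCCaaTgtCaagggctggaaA
ADH5 (R64 chrII:533963-534022, plus strand): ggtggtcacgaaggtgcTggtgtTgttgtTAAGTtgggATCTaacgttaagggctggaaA

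Every 100-base window of each gene was looked up in the whole reference genome on both strands. In ADH1 and in ADH2, 9.49% of the windows occurred elsewhere, and in the other 8 members 0% did. In ADH1 that share would correspond to 23786 reads in WT if each read stood alone, against 470 reads counted on all of ADH2. The libraries were sequenced as pairs of 100-base reads, and a pair with a mate outside the shared run can be placed. The share of pairs that lie wholly inside it was not computed, so the figure of 23786 can be too high. The ADH2 count was 0.188% of the ADH1 count in WT and 0.156% in cdc55Δ. How reads with several equal sites were counted is not given in the sources used here, and the share of ADH2 reads that came from ADH1 transcripts was not tested. The ADH2 values below, and to a far lesser degree those of ADH1, carry this uncertainty.

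**Figure D1:**
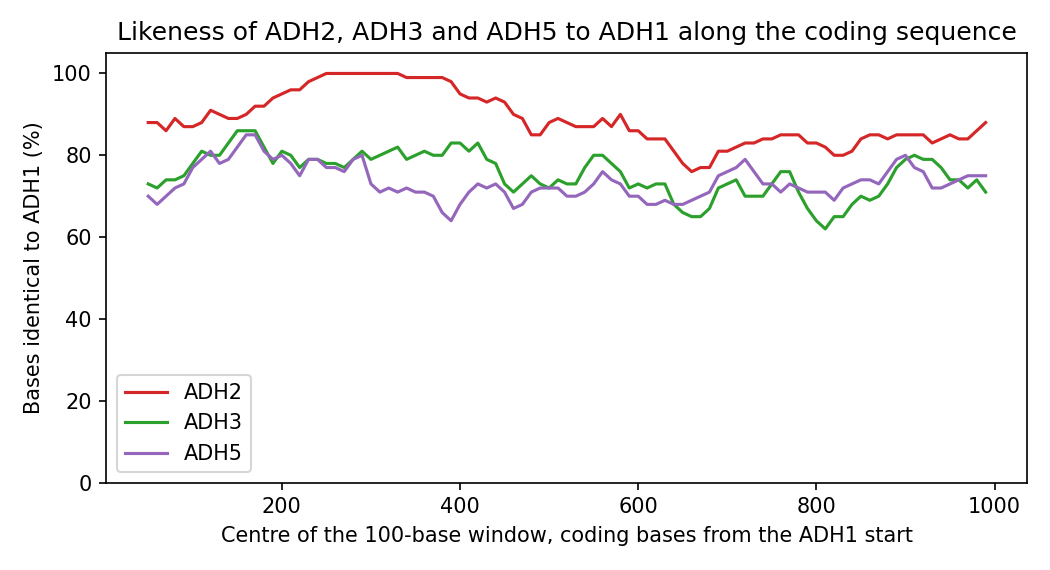
Bases of ADH2, ADH3 and ADH5 identical to ADH1 (y axis, percent) in windows of 100 bases along the ADH1 coding sequence (x axis, bases from its start), 1 line per gene. ADH2 ranges from 76% to 100% and reaches 100% inside the shared run, whereas ADH3 stays between 62% and 86% and ADH5 between 64% and 85%.

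The remaining members are further apart. ADH3 and ADH5 share 75.4% and 73.8% of coding bases with ADH1, with longest common runs of 17 and 19 bases. ADH6 and ADH7, a pair of NADPH-dependent enzymes, share 66.0% of coding bases and 63.6% of residues. SFA1 shares 30.6% of residues with ADH1, and ADH4, which belongs to a separate family of alcohol dehydrogenases, shares 22.3%. BDH1 and BDH2 share 57.6% of coding bases and 51.6% of residues, with a longest common run of 11 bases. The most alike 60 bases of BDH1 and BDH2 without gaps are shown because they show that reads of these neighbours are separable even there, with 15 differences in capitals.
BDH1 (R64 chrI:35256-35315, plus strand): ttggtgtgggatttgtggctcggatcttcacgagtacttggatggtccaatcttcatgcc
BDH2 (R64 chrI:33549-33608, plus strand): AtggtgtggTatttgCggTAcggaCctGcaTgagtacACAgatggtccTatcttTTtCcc

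The libraries held 33233285 counts in WT and 30133454 in cdc55Δ, of which the 10 members took 0.852% and 0.869%. CDC55 had 2614 reads in WT and 1 in cdc55Δ, as the labels require. LEU2, MET17 and URA3 had at most 2 reads in either library, and HIS3, whose deletion in this strain is partial, had 1624 and 1275. Of the mating type a genes, STE2, the α-factor receptor, had 24905 and 16145 reads, against 82 and 62 for the α-specific receptor gene STE3. The 6 mating type a genes read lay between log2 -1.34 and -0.24 in cdc55Δ relative to WT, and their part in the results below was not tested. In bulk RNA, fewer cells with a transcript and less transcript per cell cannot be told apart.

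Transcript levels were compared between the genes as TPM, which is per length of gene. ADH1, the main fermentative enzyme in the cytosol, was by far the most abundant member, at 5727 TPM in WT and 5693 TPM in cdc55Δ, the seventh highest mRNA in each library. Its 250547 and 229675 reads leave a counting error of a fraction of a percent. ADH1 alone made up 89.2% of the summed TPM of the 10 members in WT and 88.5% in cdc55Δ. It held 0.843% and 0.832% of the TPM of all mRNAs.

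ADH3 and ADH6 formed the next level. ADH3, the mitochondrial isozyme, stood at 264 TPM in both libraries, from 12439 reads in WT and 11496 in cdc55Δ. ADH6, an NADPH-dependent enzyme that reduces branched and aromatic aldehydes, stood at 215 TPM in WT and 213 TPM in cdc55Δ. ADH1 was therefore 21.7 times the level of ADH3 and 26.7 times that of ADH6 in WT. Both nevertheless ranked well above the median mRNA, which stood at 25.9 TPM in WT and 25.4 TPM in cdc55Δ.

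The next 4 members lay between 35.0 and 93.6 TPM, and their order was not the same in the libraries. SFA1, which oxidises formaldehyde bound to glutathione and also reduces long-chain aldehydes, had 73.9 TPM in WT and 93.6 TPM in cdc55Δ. ADH4, the isozyme known as a gene of zinc shortage, had 42.2 TPM in WT and 35.0 TPM in cdc55Δ. SFA1 led this tier in both libraries, whereas ADH4 moved from second of the 4 to last. BDH2, a putative enzyme named for its likeness to BDH1, had 39.2 TPM in WT and 63.9 TPM in cdc55Δ. BDH1, which reduces acetoin to 2,3-butanediol, had 37.6 TPM in WT and 46.1 TPM in cdc55Δ. In WT the counting intervals of ADH4 and BDH2, and those of BDH2 and BDH1, overlapped. Overlap alone does not show that levels are equal, and a direct interval for these ratios within WT was not computed. In cdc55Δ no neighbours in the order of the 10 had overlapping intervals.

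The lowest levels belonged to ADH5, ADH2 and ADH7. ADH5, a further fermentative isozyme, had 560 reads and 12.7 TPM in WT, and 447 reads and 11.0 TPM in cdc55Δ. ADH2, the isozyme that oxidises ethanol and is repressed while glucose is present, had 470 reads and 10.7 TPM in WT, and 359 reads and 8.90 TPM in cdc55Δ. In WT the intervals of ADH5 and ADH2 overlapped. ADH7, the close relative of ADH6, had 50 and 46 reads, or 1.10 TPM in each library. These 3 transcripts lay under the median mRNA in both libraries, and ADH1 exceeded ADH2 533-fold in WT and 640-fold in cdc55Δ.

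**Figure D2:**
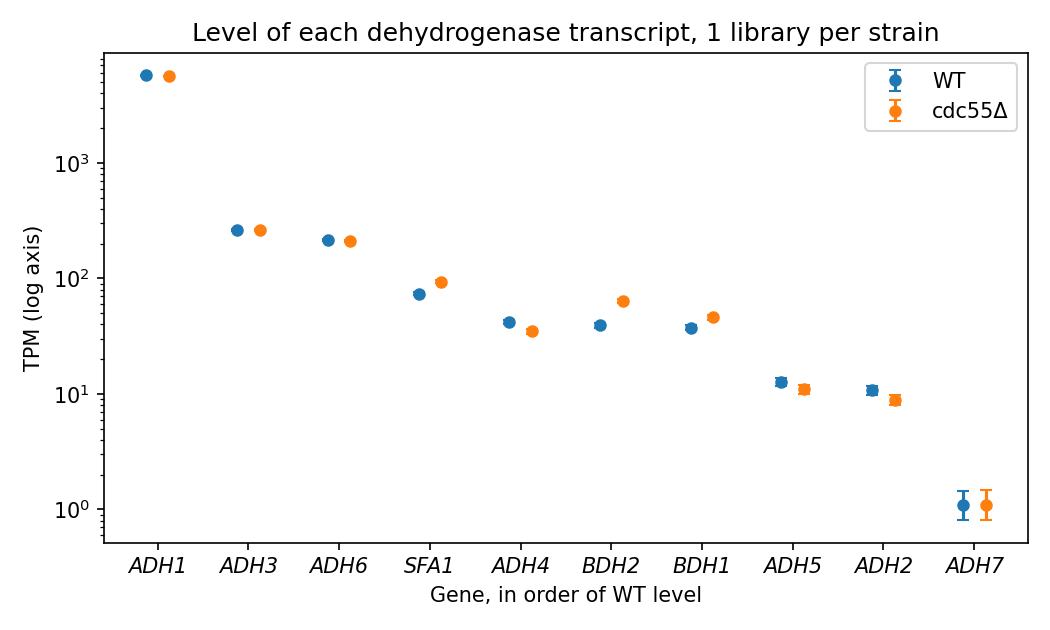
TPM (y axis, log scale) of the 10 dehydrogenase transcripts (x axis, in order of their WT level) in the WT and cdc55Δ libraries, 1 point per library with a 95% counting interval. The points run from 5727 TPM for ADH1 to 1.10 TPM for ADH7 in WT. The wider gaps between the strains are those of BDH2 (39.2 and 63.9 TPM), SFA1 and BDH1, higher in cdc55Δ, and of ADH4, ADH2 and ADH5, lower in cdc55Δ.

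The strains were then compared by the ratio of their counts after TMM scaling, as log2 of cdc55Δ over WT with a 95% Clopper-Pearson interval that covers counting error only. A gene counted as past the threshold when its scaled counts were at least 1.5-fold apart and averaged 50 or more. ADH7 missed that minimum with 48.0, so 9 of the 10 members entered the counts. Among them 1 was at least 1.5-fold higher in cdc55Δ and 0 were at least 1.5-fold lower, where 5.17% and 2.96% of the 5705 features kept were past the threshold in those directions. At 2-fold the counts were 0 and 0, against 1.91% and 1.03% of features. With 9 genes kept, these shares lie near the background and are no result about the family as a whole.

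BDH2 was the member past the threshold. Its reads went from 2052 in WT to 3088 in cdc55Δ, a 1.69-fold higher scaled count (interval 1.60 to 1.79) or a log2 fold change of 0.76 (0.68 to 0.84). Only 182 of the 5705 features, or 3.19%, were higher by more. Its neighbour BDH1 had 1803 and 2040 reads and a log2 fold change of 0.35 (0.25 to 0.44), under the threshold. The ratio of BDH2 to BDH1 in TPM was 1.04 in WT and 1.39 in cdc55Δ, and this difference of 0.41 on the log2 scale had a counting interval of 0.29 to 0.53. The BDH transcripts summed to 76.7 TPM in WT and 110.0 TPM in cdc55Δ.

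SFA1 had the second largest difference of the family, with 3584 reads in WT, 4189 in cdc55Δ and a log2 fold change of 0.39 (0.33 to 0.46). It did not reach 1.5-fold, and 9.03% of features were higher by more. Its interval overlapped that of BDH1. Both lay above the middle 50% of the features kept, which ran from -0.14 to 0.16.

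The 3 most abundant members lay close together and close to 0. ADH1 had a log2 fold change of 0.04 (0.03 to 0.05), ADH3 of 0.05 (0.02 to 0.09) and ADH6 of 0.04 (-0.00 to 0.08), and the sign of ADH6 turned under upper-quartile scaling. Their intervals overlapped, and ADH3 relative to ADH6 differed by 0.01 between the strains (-0.04 to 0.07). The mitochondrial and the cytosolic fermentative transcripts lay in nearly the same proportion, with ADH1 at 21.7 times ADH3 in WT and 21.5 times in cdc55Δ. The ADH1 interval lies above 0 only in counting error, which is small at this depth, and another scaling shifts all log2 values by up to -0.04.

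ADH2, ADH4 and ADH5 had negative values, none of them past the threshold. ADH4 had 2025 and 1548 reads and a log2 fold change of -0.22 (-0.32 to -0.12). ADH2 also had -0.22, with a wider interval (-0.42 to -0.02) from its fewer reads, and ADH5 had -0.16 with an interval that included 0 (-0.34 to 0.03). The intervals of the 3 overlapped, and ADH5 relative to ADH2 differed by 0.06 between the strains (-0.20 to 0.33). For ADH7 the interval ran from -0.56 to 0.66, which includes 1.5-fold higher, so a difference was not detectable at this depth.

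**Figure D3:**
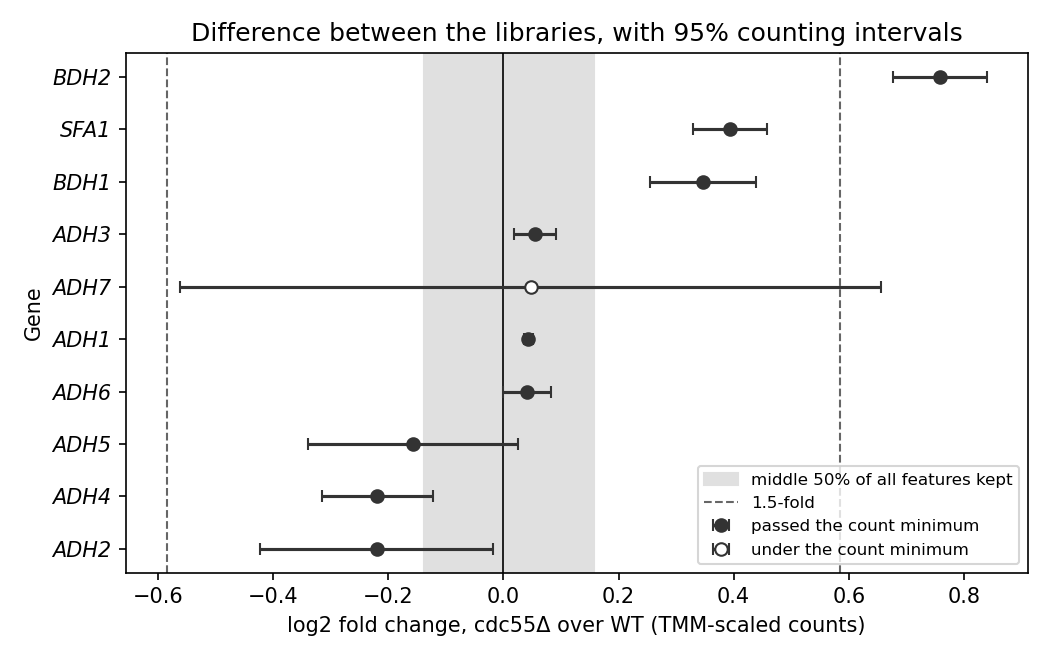
Log2 fold change of cdc55Δ over WT from TMM-scaled counts (x axis) for each of the 10 genes (y axis), with 95% counting intervals. BDH2 at 0.76 lies past the dashed 1.5-fold line, SFA1 at 0.39 and BDH1 at 0.35 lie between it and the grey band of the middle 50% of features, and ADH7 (open circle) missed the count minimum.

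Over the 9 members kept, the log2 fold changes ran from -0.22 to 0.76 with a median of 0.04, beside a median of 0.00 over all features kept. Within 0.1 of 0 lay 3 of the 9, beside 36.5% of features, and within 0.5 lay 8 of the 9, beside 89.7% of features. The summed level of all 10 was 6423 TPM in WT and 6430 TPM in cdc55Δ. ADH1, which dominates the sum, had 5727 and 5693 TPM. Without ADH1 the other 9 summed to 696 and 737 TPM, so ADH1 was lower and the rest higher by this measure. By TMM-scaled counts the sum of all 10 had a log2 fold change of 0.05. For ADH1 and ADH6, TPM was slightly lower in cdc55Δ and the scaled count slightly higher (0.04 for each), so the measures differ in sign there. Relative to ADH4, SFA1 was 1.75 times as abundant in WT and 2.68 times in cdc55Δ, a shift of 0.61 on the log2 scale (0.50 to 0.73). It was the widest among 8 pairs picked for comparison, not among all pairs of members. BDH2 (0.76) and ADH4 (-0.22) lie further apart and were not among the 8.

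The 250 bases before and the 50 bases after each coding start were searched on both strands for 4 short motifs, since family members are known targets of different activators. CTTCC is the core recognised by Gcr1p, the activator of glycolytic genes, and stood in the windows of 6 members (ADH1, ADH3, ADH4, ADH5, ADH6 and SFA1) and of 46.4% of 6001 genes. The only match of ADH4 lay inside the coding sequence, from coding base 5. ADH1 had 4 such matches, more than any other member, and the overlapping pair of them is shown because it sits before the family's most abundant transcript. The first match of the pair starts at -185 relative to the coding start, and capitals mark both cores.
ADH1 (R64 chrXV:160763-160787, minus strand): tatacggcCTTCCTTCCagttactt

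TTGGNG, the letters recognised by Adr1p, which activates ADH2 when glucose is gone, stood in 5 members (ADH4, ADH6, ADH7, SFA1 and BDH2) and in 34.1% of genes. The matches of BDH2 (from coding base 42) and of ADH4 (from coding bases 29 and 44) lay inside the coding sequence, not before it. AGGGG, the stress response element of Msn2p and Msn4p, stood in 0 of the 10 and in 21.6% of genes. The zinc-responsive element, the consensus of the zinc-sensing activator Zap1p, stood in 0 of the 10 and in 0.0833% of genes. Overlaps between matches were kept, a match here is only a match of letters, and sites further upstream were not searched.

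The regulators of the family were measured in the same libraries. ADR1, which encodes the activator of ADH2, had 986 reads in WT and 739 in cdc55Δ, with a log2 fold change of -0.25. CAT8, which encodes an activator of genes for growth without glucose, had 180 and 197 reads and 0.30. SNF1, the kinase that lifts glucose repression, had 0.21, and MIG1, the repressor it acts on, had 0.14. REG1 and GLC7, the phosphatase subunits that counter Snf1p, had -0.00 and 0.18.

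Of the activators of glycolytic genes, GCR1 had a log2 fold change of -0.23, GCR2 -0.10, TYE7 -0.39 and RAP1 -0.07. ZAP1 had -0.15, YRR1, a drug-response activator, had -0.06, and MSN2 had 0.17. MSN4, which encodes a general stress activator, went from 1155 reads to 2047 (log2 fold change 0.99), and GIS1, a further activator in stress and starvation, from 724 to 1010 (0.65). These were the 2 of 15 regulator genes at least 1.5-fold higher, and 0 were lower, beside 5.17% and 2.96% of all features kept. The median of the 15 was -0.00.

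The genes around the dehydrogenases were read as lists. Every list count from here on stands beside 5.17% of all features kept at least 1.5-fold higher and 2.96% lower. The lists are short and none was tested as a set, so the counts describe the named genes and are no result about the lists. The acetaldehyde list held 10 genes that make or use acetaldehyde or use the acetate formed from it. Of these, 3 were at least 1.5-fold higher and 0 lower, with a median of 0.22. ALD4, the mitochondrial aldehyde dehydrogenase, was highest at 1.31, from 2802 reads to 6178, and ALD5, also mitochondrial, was lowest at -0.43, from 13132 to 8676. The other two past the threshold were ALD3 (1.03) and ALD2 (0.61), cytosolic aldehyde dehydrogenases. Under upper-quartile scaling ALD2 no longer passed the threshold, and the count was 2 of 10.

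Of 10 genes of the Ehrlich pathway, which turns amino acids into fusel alcohols, and of ester formation, 0 were past the threshold in either direction, with a median of -0.10. Their values ran from -0.53 for EEB1 (715 to 440 reads) to 0.31 for EHT1 (2721 to 3001 reads), both makers of ethyl esters. Of 16 other carbonyl reductases, 15 were kept, 4 were at least 1.5-fold higher and 0 lower, with a median of 0.24. ARA1, an arabinose dehydrogenase, was highest at 0.96 (2977 to 5164 reads), and AAD3, a putative aryl-alcohol dehydrogenase, was lowest at -0.34 (631 to 444 reads). The others past the threshold were GRE2 at 0.75, AAD10 at 0.73 and YJR096W at 0.65.

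Glycerol formation is the other main way to reoxidise NADH without oxygen. Of 11 genes of NADH reoxidation and glycerol formation, 10 were kept, 2 were at least 1.5-fold higher and 0 lower, with a median of 0.21. The 2 were GPP2, a glycerol phosphatase, at 1.22 (5230 to 10848 reads) and GPD1, a glycerol phosphate dehydrogenase, at 1.18 (10825 to 21813 reads), and the lowest was NDE1, an NADH dehydrogenase of mitochondria, at -0.13.

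ADH2 belongs with the genes repressed by glucose, and ADH4 with those of zinc shortage. Of 17 other glucose-repressed genes 12 were kept, 1 was at least 1.5-fold higher (ALD4, in both lists) and 0 were lower, with a median of 0.20 and a lowest value of -0.32 for PCK1, a gluconeogenic enzyme (111 to 79 reads). Of 13 zinc-responsive genes 12 were kept, 0 were at least 1.5-fold higher and 2 lower, with a median of -0.15. These were ZRT1, the high-affinity zinc transporter, at -1.31 (2368 to 850 reads), and FET4, a low-affinity iron and zinc transporter, at -0.86 (8099 to 3958 reads), and the highest was DPP1, a lipid phosphatase, at 0.20.

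**Figure D4:**
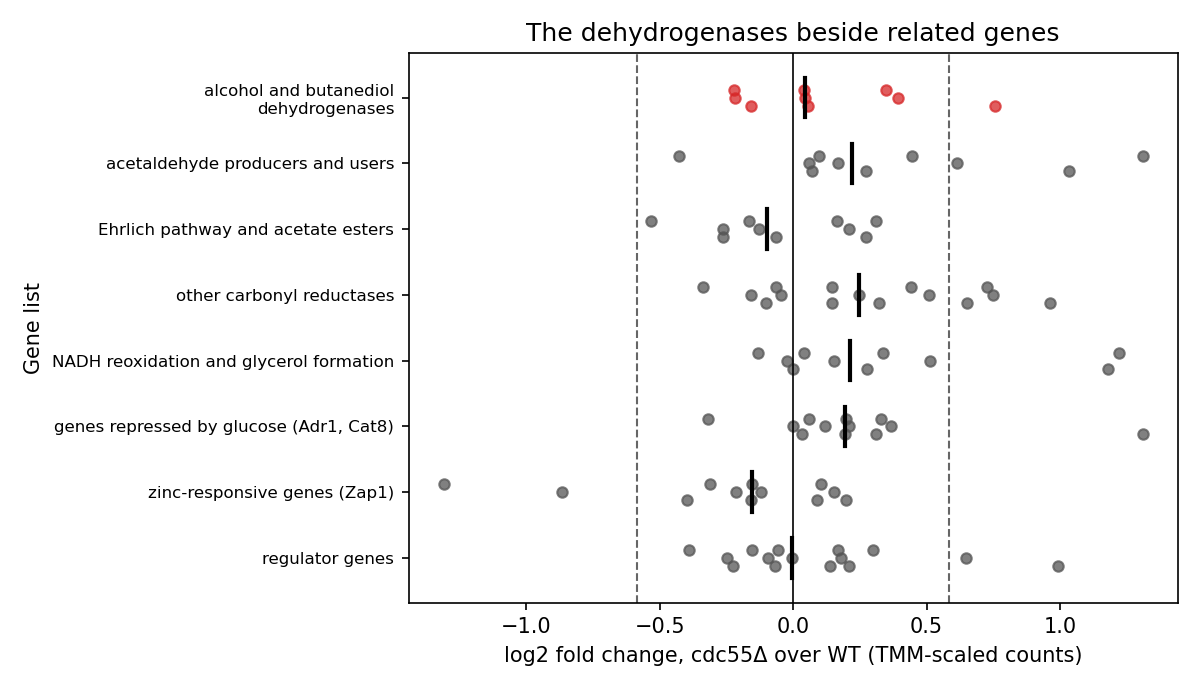
Log2 fold change of cdc55Δ over WT (x axis, TMM-scaled counts) of each gene kept in 8 lists (y axis), with 1 point per gene, a black bar at each list's median and dashed lines at 1.5-fold. The dehydrogenases (red) run from -0.22 to 0.76, the acetaldehyde list reaches 1.31 with ALD4, and the zinc list reaches -1.31 with ZRT1.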

How the data were processed

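RNA-seq of BY4741 WT and cdc55Δ cells, 1 library per strain, was analysed from the deposited table. The authors mapped reads to the S288C genome with HISAT2 after Cutadapt, and the submitters' processing notes name featureCounts. The deposited whole-number counts are per annotated feature and not normalized. The deposited RPKM and TPM values were made by the authors from these counts, the listed coding lengths and the library sums. The counts gave back the RPKM and TPM columns, and RPKM was used no further. The library kit keeps strand, but the strand setting of the counting is not given in the sources used here.

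Log2 fold changes of TMM-scaled counts (edgeR 4.0.16, prior count 0.5) and 95% Clopper-Pearson intervals were computed in Python 3.11.15 (SciPy 1.17.1). The recovery of known fold changes after TMM scaling was checked on simulated counts, and the intervals were not checked in this way. The intervals cover counting error only and treat each read as independent. PCR copies are not independent molecules, so the intervals can be too narrow even for that error. With 1 library per strain no p-value was computed. Features matched the R64 annotation by accession, including all 10 members, whose lengths were equal. Sequences were read from the R64 genome of RefSeq, and identities were computed with Biopython 1.88. Every member and regulator gene, the extremes of each list and the neighbours past 1.5-fold are named, and the other list genes past 1.5-fold were named after their values were seen. The members and lists were chosen with earlier results of these data known. The alternatives were 5 other scalings (DESeq2 1.42.0 size factors, library totals, upper quartile, iterated DEGES and mRNA features only), other prior counts, minimums and thresholds, and other denominators of the isozyme shares.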

Additional observations from a re-analysis of the deposited data

How the results depend on the processing

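Under 5 other scalings and with other count minimums, the count of members at least 1.5-fold higher in cdc55Δ stayed at 1 and the count lower at 0. At a threshold of 2-fold the count higher was 0, and at a lower one, a log2 fold change of 0.32, it was 3 (BDH2, SFA1 and BDH1), where 11.9% of features were higher. The median of the members, 0.04, was 0.0158 with library totals only and 0.00140 with upper-quartile scaling. Of 70 single-member values under 7 other scalings and prior counts, 67 stayed inside the counting interval and 3 left it, those of ADH1 under both of these scalings and of ADH3 under upper quartile, and ADH6 turned to -0.00138 under upper quartile. The share of ADH1 in WT was 90.1% from counts per unique 100-base window, 88.5% from counts not divided by length and 95.2% of the sum of ADH1, ADH2, ADH3 and ADH5, and in cdc55Δ 89.6%, 87.7% and 95.2%. The share of features at least 1.5-fold lower was 5.74% with no count minimum and 1.82% with a minimum of 500. Of 70 counts of genes past the threshold in the other lists under the 5 scalings, 69 were equal to those reported, and the exception was the acetaldehyde list, with 2 higher in place of 3 under upper quartile. At 2-fold, 0 other carbonyl reductases and 0 regulator genes remained past the threshold, beside 1.91% of features higher and 1.03% lower. No paired analysis was possible because 1 library was sequenced per strain, and for the same reason edgeR's quasi-likelihood test, DESeq2's test and the leaving out of a replicate could not be fitted. Depth limits ADH7 in both libraries, and the sharing of sequence with ADH1 limits ADH2.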

Other observations

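Neighbours were taken among the features matched to the annotation by accession, so unmatched ones, tRNAs among them, were passed over. Of the nearest such features on each side of the 10 genes, 3 that are not members were at least 1.5-fold apart. Among all features kept, 5.17% were at least 1.5-fold higher and 2.96% lower. The 3 are named for their values, and their number is no result about the neighbours. FET4, 736 bases from ADH6, had 8099 reads in WT and 3958 in cdc55Δ (log2 fold change -0.86), while ADH6 had 0.04. ZRT1, 4670 bases from ADH4, had 2368 and 850 reads (-1.31), while ADH4 had -0.22. UGX2, 868 bases from SFA1 and of no function named here, had 59 and 139 reads and a log2 fold change of 1.40 (counting interval 0.96 to 1.87), while SFA1 had 0.39. On either side of the BDH2 and BDH1 pair, GDH3, which encodes a glutamate dehydrogenase, had 0.32 and ECM1, which encodes a ribosome export factor, had -0.02. GDH3 and ECM1 were chosen after their values were seen. ALD4 in the list of acetaldehyde genes had a larger difference than any of the 10 dehydrogenases.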
